A study of Danio rerio with 4 samples.

Results

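The phagocyte NADPH oxidase is described here through 4 of its subunit genes, cyba, cybb, ncf1 and ncf4. They were taken by symbol from a table of 31947 zebrafish (Danio rerio) genes. Each symbol belonged to 1 Ensembl gene, and all 4 passed the filter on low counts, which left 19016 genes for testing. RNA was sequenced from cells that flow cytometry had sorted out of embryo tails at 52 hours post fertilisation (hpf). The tail contains the caudal hematopoietic tissue (CHT), a site where stem and progenitor cells of the blood settle and multiply. Cells positive for kdrl:mCherry, a reporter driven by the promoter of an endothelial VEGF receptor gene, formed the group CHT-EC. Cells positive for CD41:GFP, a reporter of blood stem and progenitor cells and thrombocytes, formed the group CHT-HSPC. Each group had 2 libraries, and no mutant, drug or other treatment is named in the labels of either. The labels do not tell whether replicate libraries are from separate clutches, and p-values therefore cover only the spread among these samples, which may be technical.

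The phagocyte oxidase is the enzyme behind the respiratory burst of neutrophils and macrophages. A membrane pair made of Cybb (Nox2, gp91phox), the catalytic chain that passes electrons from NADPH to oxygen, and Cyba (p22phox), the chain that stabilises it, is switched on when cytosolic proteins, among them Ncf1 (p47phox), Ncf4 (p40phox) and the GTPase Rac2, join it. The superoxide it makes is used to kill microbes, and loss of a subunit in humans causes chronic granulomatous disease. In mammals Cyba also pairs with other oxidases of the family, among them Nox1 and Nox4.

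The libraries held 27514202 to 32268535 counts, and levels are given as CPM, counts divided by library totals that were scaled with TMM factors. Transcripts of 9 endothelial markers (kdrl, cdh5, pecam1, egfl7, tie1, tek, plvapb, flt4 and stab2) took 0.0268% and 0.0131% of the counts of CHT-EC replicates 1 and 2, and 0.00594% and 0.00388% in CHT-HSPC. By edgeR (adjusted p under 0.05) 1 of the 9, stab2, was called higher in CHT-EC, beside 3.78% of all genes tested. All 9 had a fold change toward CHT-EC, with a median log2 fold change of 2.17. An unadjusted p under 0.05 in edgeR was reached by 6 of the 9, beside 14.6% of all genes tested. The groups did not overlap for 7 of the 9, beside 30.6% of all genes tested. The levels of cdh5 and tie1 were lower in CHT-EC replicate 2 than in either CHT-HSPC library. Transcripts of 9 neutrophil markers (lyz, mpx, npsn, nccrp1, mmp9, mmp13a, srgn, csf3r and cebp1) took 2.24% and 1.84% of the CHT-EC counts, and 0.119% and 0.155% of those of CHT-HSPC. For 7 macrophage markers (mpeg1.1, mfap4, marco, csf1ra, c1qa, c1qb and c1qc) the shares were 0.0483% and 0.0282% against 0.000962% and 0.000753%, and all 3 of the c1q genes were at 0 counts in both CHT-HSPC libraries. Thrombocyte markers (itga2b, itgb3b, mpl, gp1bb, gp9 and thbs1b) took 0.0889% and 0.0352% of the CHT-EC counts, with 0.204% and 0.181% for CHT-HSPC. Most of these counts were of thbs1b, at 875 and 288 CPM against 1738 and 1285 CPM. Over the whole list the log2 fold changes, CHT-EC minus CHT-HSPC, ran from −3.49 to −1.38, the latter at thbs1b. Stem and progenitor markers (runx1, myb, gata2b, meis1b and zfpm1) took 0.0512% and 0.0696% in CHT-EC, with 0.173% and 0.226% for CHT-HSPC. Most of these counts were of myb, at 344 and 479 CPM against 1098 and 1393 CPM. The log2 fold change of gata2b was 0.02 (edgeR adjusted p = 0.989). By edgeR 4 of these 5 and 4 of the 6 thrombocyte markers were called higher in CHT-HSPC, beside 0.752% of all genes tested. The 9 erythroid markers, mostly embryonic globin genes, took 1.90% and 3.48% of the CHT-EC counts, against 0.200% and 0.135% for CHT-HSPC. Of these 9, 8 were called higher in CHT-EC by edgeR, beside 3.78% of all genes tested. The same call was made for 8 of the 9 neutrophil markers and 5 of the 7 macrophage markers. The 4 muscle markers took 0.182% and 0.413% in CHT-EC, while CHT-HSPC replicate 1 stood apart at 0.867% from replicate 2 at 0.117%. Both phagocyte marker lists and the erythroid list were thus higher in the CHT-EC libraries, in which the oxidase genes were higher too, and their part in the differences below was not tested. In bulk RNA, fewer cells of a type and less RNA per cell cannot be told apart.

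All 4 oxidase subunit genes lay higher in both CHT-EC libraries than in either CHT-HSPC library, by 5.48-fold to 14.95-fold in the fitted values. The membrane pair, cybb and cyba, passed the test, and the cytosolic genes ncf1 and ncf4 missed it narrowly. The count of 2 of 4 genes called higher in CHT-EC stood beside 3.78% of all genes tested, and the count of 0 of 4 called higher in CHT-HSPC beside 0.752% (quasi-likelihood F-test of edgeR, Benjamini-Hochberg adjusted p under 0.05 over all genes tested). DESeq2 called 4 subunits higher in CHT-EC, beside 10.9% of the genes to which it gave an adjusted p, and 0 higher in CHT-HSPC, beside 3.91%. In the latter direction 0 subunits had an unadjusted p under 0.05 in edgeR, beside 9.23% of all genes tested. Groups did not overlap, with CHT-EC higher, for 4 of 4 subunits and for 30.6% of all genes tested. An unadjusted p under 0.05 in edgeR toward CHT-EC was reached by 4 of 4 subunits and by 14.6% of all genes tested. The median log2 fold change was 3.08 over the subunits and 0.02 over all genes tested.

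The catalytic chain showed the largest fold change of the 4. The level of cybb (ENSDARG00000056615) was 160.0 CPM in replicate 1 and 85.3 CPM in replicate 2 of CHT-EC, and 4.99 and 11.4 CPM in those of CHT-HSPC (values are given in this order throughout). The lower CHT-EC library was thus 7.49 times the higher CHT-HSPC library. The group means were 123 ± 52.8 CPM against 8.19 ± 4.53 CPM (mean ± SD, n = 2 libraries per group throughout). The log2 fold change, CHT-EC minus CHT-HSPC, was 3.90 (SE 0.53, edgeR adjusted p = 0.0154). It was 4.66 when replicate 2 of CHT-HSPC was left out and 3.43 when replicate 1 was. Leaving out replicate 1 or 2 of CHT-EC gave 3.37 or 4.30.

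Its membrane partner cyba (ENSDARG00000018283) was at 137 and 76.6 CPM in CHT-EC, but 12.4 and 19.4 CPM in the libraries of CHT-HSPC. The groups did not overlap, with 3.95-fold between the nearest libraries. The means were 107 ± 42.5 CPM and 15.9 ± 4.95 CPM, and the log2 fold change was 2.75 (SE 0.41, edgeR adjusted p = 0.0199). Without CHT-EC replicate 1 neither membrane gene passed, at an adjusted p of 0.0702 for cybb and 0.0977 for cyba.

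The organiser gene ncf1 (ENSDARG00000033735), whose protein carries the cytosolic complex to the membrane, varied most between libraries. It was at 664 and 181 CPM in CHT-EC, compared with 18.6 and 60.8 CPM in the CHT-HSPC libraries. The libraries of a group differed by 3.68-fold in CHT-EC and 3.27-fold in CHT-HSPC, and the nearest libraries of different groups by 2.97-fold. The means of 423 ± 342 CPM and 39.7 ± 29.9 CPM gave a log2 fold change of 3.41 (SE 0.77), which missed the threshold (edgeR adjusted p = 0.0573). It passed when replicate 2 of either group was left out, at an adjusted p of 0.0234 for CHT-EC (log2 fold change 4.08) and 0.0238 for CHT-HSPC (4.55). When replicate 1 was left out the adjusted p was 0.235 for CHT-EC (log2 fold change 2.18) and 0.0708 for CHT-HSPC (2.80).

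The gene ncf4 (ENSDARG00000040812) encodes the subunit that binds a phosphoinositide of the phagosome membrane. It was at 55.1 and 32.8 CPM in CHT-EC, but 4.38 and 11.6 CPM in the libraries of CHT-HSPC, so the nearest libraries of the groups were 2.82-fold apart. Its means were 43.9 ± 15.8 CPM and 8.0 ± 5.12 CPM, with a log2 fold change of 2.45 (SE 0.55, edgeR adjusted p = 0.0562). The calls of ncf1 and ncf4 depended on the method, since both passed with limma-voom (adjusted p = 0.0309 and 0.0312) and with DESeq2 (7.93e-06 and 0.000263). With 1 library left out ncf4 passed in 1 of 4 fits, without CHT-HSPC replicate 2 (log2 fold change 3.36, edgeR adjusted p = 0.0212). Leaving out CHT-EC replicate 1 gave 0.268 (log2 fold change 2.03), leaving out CHT-EC replicate 2 gave 0.0672 (2.79), and leaving out replicate 1 of CHT-HSPC gave 0.0848 (1.92).

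**Figure D1:**
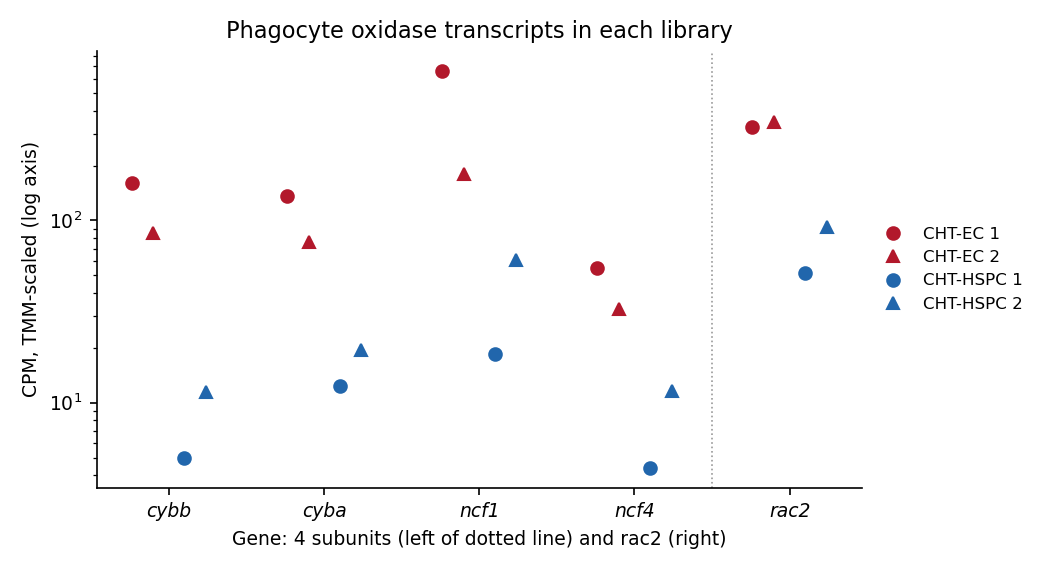
Level of the 4 subunit genes and of rac2 in each library, in CPM with TMM scaling on a log axis, with 1 point per library (red for CHT-EC, blue for CHT-HSPC; circles for replicate 1, triangles for replicate 2). For every gene drawn both red points lie above both blue points, and the subunits share 1 order within each group, with CHT-EC replicate 1 above replicate 2 and CHT-HSPC replicate 2 above replicate 1.

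The subunits had the same order of libraries within each gate. Each was 1.68 to 3.68 times as high in CHT-EC replicate 1 as in replicate 2, and 1.57 to 3.27 times as high in CHT-HSPC replicate 2 as in replicate 1. Their summed share of counts was 0.0985% and 0.0372% in the CHT-EC libraries, and 0.0039% and 0.0111% in those of CHT-HSPC. The neutrophil markers did not show the spread of the subunits in CHT-EC. Each of the 9 was between 0.843 and 1.47 times as high in replicate 1 as in replicate 2. The range over the macrophage markers, 0.552 to 2.98 times, overlapped that of the subunits. Below the subunit range lay csf1ra (1.11), mpeg1.1 (0.875), c1qb (1.58) and c1qa (0.552). The ranges over endothelial (0.931 to 18.8), thrombocyte (0.503 to 3.04) and keratinocyte markers (1.21 to 2.38, genes named below) overlapped that of the subunits too. Those over the erythroid, muscle, and stem and progenitor markers did not. In CHT-HSPC the ratio of replicate 2 to replicate 1 ran from 0.658 to 4.58 over the neutrophil markers, with the top value at csf3r, the receptor for granulocyte colony-stimulating factor. For summed CPM this ratio was 2.56 for the subunits, 1.17 for the neutrophil and 1.18 for the stem and progenitor markers. Replicate 2 was the lower for macrophage (0.707), endothelial (0.589), keratinocyte (0.290), thrombocyte (0.803), erythroid (0.608) and muscle markers (0.122).

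The subunits were also set against the phagocyte markers of the same library. Their summed counts came to 4.39% and 2.02% of the neutrophil marker counts in CHT-EC. For CHT-HSPC the values were 3.27% and 7.14%, so the groups overlapped. The leading neutrophil marker was not the same gene in each group. It was lyz for CHT-EC, at 295634 and 222493 counts, with mmp9 at 86737 and 78049. For the CHT-HSPC libraries it was mmp9, at 13549 and 13213 counts, with lyz at 5819 and 11706. The log2 fold change was 5.12 for lyz and 2.82 for mmp9. The overlap is thus a result for this list of 9, and other choices of neutrophil markers were not tested. Relative to macrophage marker counts the summed subunit counts gave a ratio of 2.04 and 1.32 for CHT-EC, with 4.05 and 14.7 for CHT-HSPC. Here both CHT-HSPC libraries were higher, by 2.23 on the log2 scale between the group means. The macrophage markers had few counts in CHT-HSPC, with csf1ra at 215 and 126, marco at 11 and 90 and mpeg1.1 at 8 and 7. The ratio in that group therefore rests on few counts. With 2 libraries per group an exact two-sided permutation test cannot give a p below 0.333, which is the value for the macrophage ratio, against 0.667 for the neutrophil ratio.

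Proportions among the subunits could be compared between libraries because transcript length cancels. The count of cyba per count of cybb was 0.855 and 0.897 for CHT-EC, with 2.48 and 1.70 for CHT-HSPC. Thus cyba was the lower in count of the pair in both CHT-EC libraries and the higher in both CHT-HSPC libraries. Counts of cybb per count of ncf4 were 2.90 and 2.60 for CHT-EC, with 1.14 and 0.98 for CHT-HSPC. The ratio of cyba to ncf4 overlapped between the groups, at 2.48 and 2.33 against 2.82 and 1.67. Groups overlapped also for cyba to ncf1 and for cybb to ncf1. The ratio of ncf1 to ncf4 was 12.1 and 5.51 against 4.24 and 5.23, so the lower CHT-EC value lay close to the higher CHT-HSPC value. In log2 units the difference between groups was −1.23 for cyba to cybb and 1.38 for cybb to ncf4, with SDs between libraries of 0.0498 and 0.385 for the first and 0.112 and 0.153 for the second. Over the 8 ratios, including those to markers, the exact permutation p was 0.333 for 4 and at least 0.667 for the others, and the lowest Benjamini-Hochberg adjusted value was 0.667, so none could pass.

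**Figure D2:**
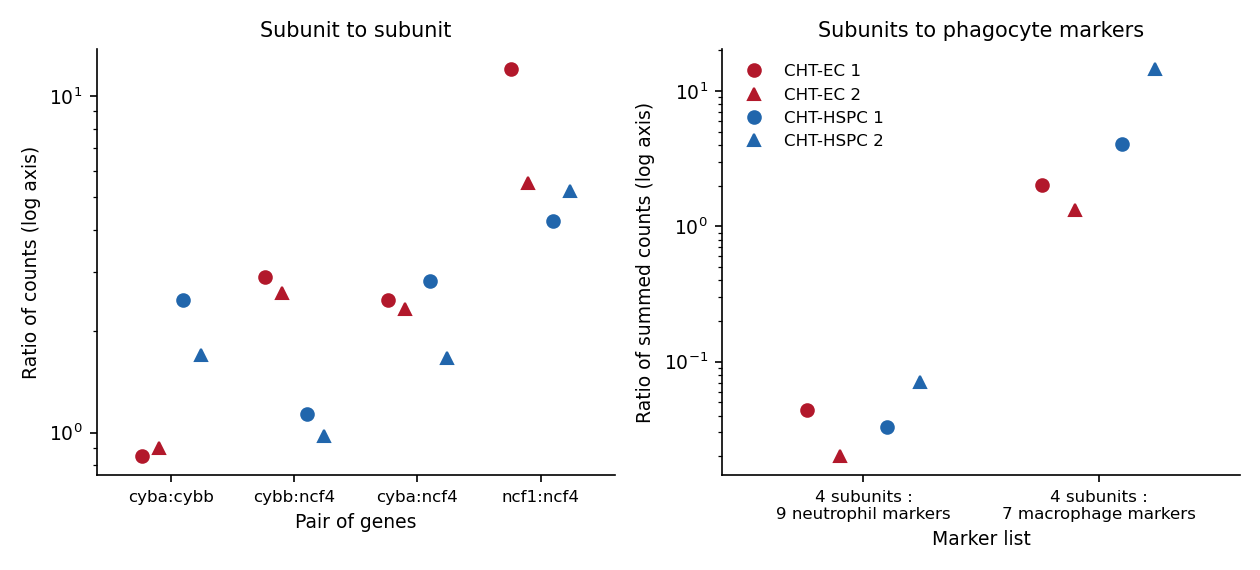
Ratios of counts within each library on log axes, for 4 pairs of subunit genes (left) and for the summed subunit counts against the summed counts of 9 neutrophil or 7 macrophage markers (right), with 1 point per library. The CHT-EC libraries (red) lie apart from the CHT-HSPC libraries (blue) for cyba to cybb, cybb to ncf4 and the macrophage markers, and narrowly for ncf1 to ncf4. The colours overlap for cyba to ncf4 and for the neutrophil markers.

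Among the partners and regulators of the enzyme, the genes rac2 and pik3r5 were higher in CHT-EC. The list of partners and regulators was chosen with earlier results of these data known. Of its 22 genes 20 were found in the table and tested, 2 were higher in CHT-EC, 18 did not pass and none was lower (edgeR, adjusted p under 0.05, against 3.78% higher and 0.752% lower among all genes tested). At an unadjusted p under 0.05 the counts were 7 and 0, against 14.6% and 9.23% of all genes, and DESeq2 called 7 and 0, against 10.9% and 3.91%. The median log2 fold change was 0.76, against 0.02 over all genes tested.

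The 2 genes called were rac2 and pik3r5. The gene of the blood cell GTPase that completes the active enzyme, rac2 (ENSDARG00000038010), was at 324 and 347 CPM against 51.7 and 91.6 CPM (log2 fold change 2.23, SE 0.34, edgeR adjusted p = 0.0201). Both CHT-EC libraries were alike in rac2, unlike in the 4 subunits. The ubiquitous relatives rac1a and rac1b had log2 fold changes of 0.69 and 0.36, at an adjusted p of 0.460 and 0.644.

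Phosphoinositide 3-kinase gamma, an enzyme upstream of the burst in mammalian neutrophils, was represented by genes for its chains. The regulatory chain gene pik3r5 (ENSDARG00000102762) was at 144 and 88.7 CPM in CHT-EC, but 5.32 and 19.2 CPM in the libraries of CHT-HSPC (log2 fold change 3.24, SE 0.62, edgeR adjusted p = 0.0375). The catalytic chain gene pik3cg was at 107 and 61.2 CPM against 70.5 and 143 CPM, so its groups overlapped (log2 fold change −0.34, SE 0.42, edgeR adjusted p = 0.676), and its sign turned when replicate 2 of either group was left out (0.021 and 0.29). The genes prkcda, hvcn1, cybc1, rac1a and rac1b are named after their values were seen. The call of pik3r5 ended with library totals alone (adjusted p = 0.0569), and those of rac2 and pik3r5 ended without CHT-EC replicate 1 (0.0855 and 0.173). The log2 fold change of pik3r5 was 2.60 when replicate 1 of CHT-HSPC was left out and 4.48 when replicate 2 was.

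Other regulators did not pass in edgeR. The kinase gene prkcda (protein kinase C delta, which phosphorylates p47phox in human phagocytes) was at 135 and 129 CPM in CHT-EC, compared with 15.7 and 46.6 CPM in the CHT-HSPC libraries (log2 fold change 2.08, SE 0.50, edgeR adjusted p = 0.0672), and passed with DESeq2 (adjusted p = 0.000947), with limma-voom (0.0242), with the replicate number as a block (0.0344) and without CHT-HSPC replicate 2 (0.00976, log2 fold change 3.11). The proton channel gene hvcn1, whose product balances the charge that the oxidase moves, was at 10.04 and 4.52 CPM against 2.19 and 0.983 CPM (log2 fold change 2.20, edgeR adjusted p = 0.139, and 0.0373 with DESeq2). In 9 of the 11 alternative fits that tested hvcn1 it did not pass, with log2 fold changes over the 11 from 1.52 to 2.89. The gene matched to cybc1 (ENSDARG00000071414), a chaperone of the membrane pair in mice and humans, was near the same level in all libraries, at 23.5, 19.4, 19.7 and 20.5 CPM (log2 fold change 0.09, SE 0.34). Of the tested members that did not pass, the most abundant were the small GTPase gene rap1b (−0.15), the kinase genes pak2b (−0.11) and pak2a (0.28), and pik3cg, given as log2 fold changes with an adjusted p of 0.592 to 0.836.

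**Figure D3:**
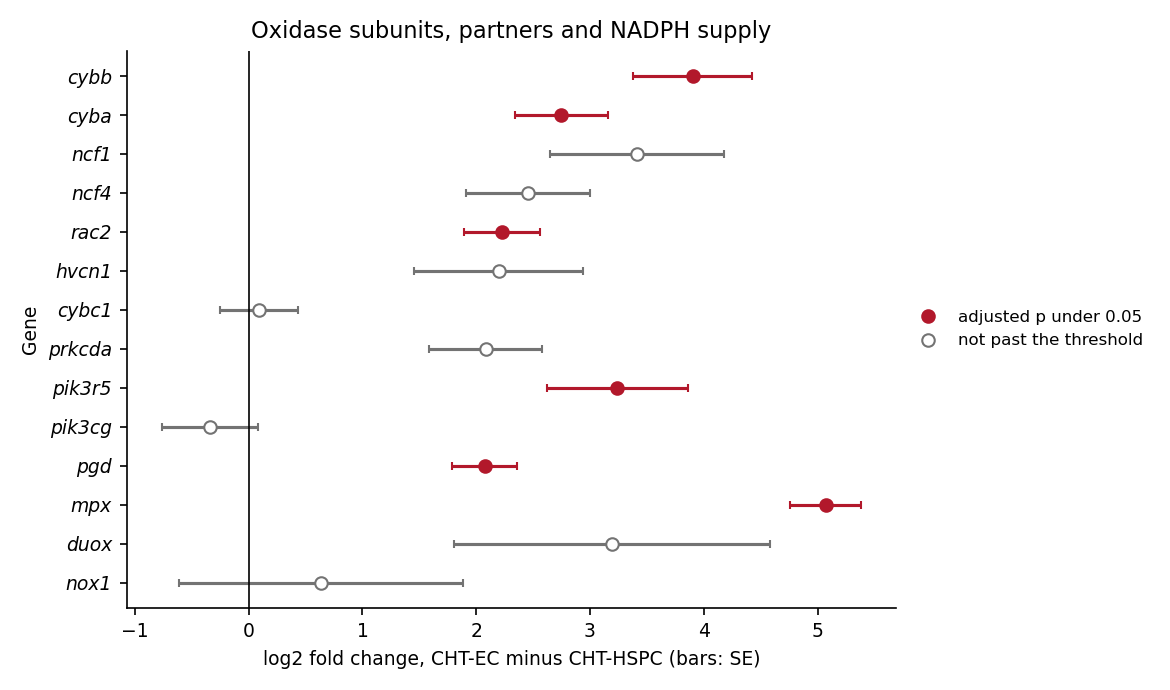
Log2 fold change, CHT-EC minus CHT-HSPC, with its SE as bars, for the 4 subunit genes and selected genes of the oxidase pathway. Of the lists for NADPH supply and for superoxide and peroxide handling only pgd and mpx are drawn, both of them called. In those lists 5 of 12 and 6 of 25 tested genes had a fold change toward CHT-HSPC. The genes prkcda, hvcn1 and cybc1 were chosen after their values were seen. Filled red points are past an adjusted p of 0.05 in edgeR. The 4 subunits and rac2 lie between 2.23 and 3.90, while cybc1 (0.09) and pik3cg (−0.34) lie near 0.

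Among the other oxidases of the family, nox1 and duox were scarce, at no more than 1.95 and 3.43 CPM in any library. Of 9 genes listed, which include organiser genes, 6 were in the table, NOX5 had no count in any library and 4 were tested. The genes nox4, duoxa and duoxa2 were not analysed here. None of the 4 passed in either direction in edgeR, beside 3.78% higher and 0.752% lower among all genes tested. In DESeq2 none passed either, beside 10.9% and 3.91%. None had an unadjusted p under 0.05 in edgeR, beside 14.6% and 9.23% of all genes tested. All 4 had a fold change toward CHT-EC, with a median log2 fold change of 0.94, against 0.02 over all genes tested. The most abundant was noxo1a, an organiser of Nox1 in mammals, at 29.3 and 16.0 CPM in CHT-EC, but 14.8 and 8.24 CPM in the libraries of CHT-HSPC (log2 fold change 0.98, edgeR adjusted p = 0.271). Its relative noxo1b had a log2 fold change of 0.90. The dual oxidase gene duox, the source of hydrogen peroxide at zebrafish wounds, had 64 and 101 counts in CHT-EC, but 18 and 1 in the CHT-HSPC libraries (log2 fold change 3.20, SE 1.39, edgeR adjusted p = 0.219). The keratinocyte markers krt4, krt5, cyt1 and icn took 0.273% and 0.149% of the CHT-EC counts, with 0.0751% and 0.0241% for CHT-HSPC, and their part in the duox counts was not tested. The gene nox1 was at 0.434 to 1.95 CPM, with groups that overlapped (log2 fold change 0.64, edgeR adjusted p = 0.807).

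A list of genes for superoxide and peroxide handling (the peroxide genes below) also held some whose products act on neither, such as hmox1a. Of its 25 tested members 4 were higher in CHT-EC and none was lower (edgeR), with 21 not past the threshold and a median log2 fold change of 0.79. All genes tested gave 3.78% and 0.752% in these directions. At an unadjusted p under 0.05 the counts were 10 and 1 (14.6% and 9.23% of all genes), and DESeq2 called 6 and 0 (10.9% and 3.91%). The myeloperoxidase gene mpx (ENSDARG00000019521), whose enzyme makes hypochlorous acid from hydrogen peroxide in neutrophil granules and which is also 1 of the 9 neutrophil markers, was at 2203 and 2611 CPM in CHT-EC, compared with 59.8 and 83.3 CPM in the CHT-HSPC libraries (log2 fold change 5.07, SE 0.31, edgeR adjusted p = 0.00357). The gene hmox1a, whose enzyme breaks down heme under oxidative stress and does not act on peroxide, was at 90.6 and 34.3 CPM against 4.01 and 2.14 CPM (log2 fold change 4.35, SE 0.61, edgeR adjusted p = 0.0167). The peroxidase genes prdx5 (log2 fold change 1.62, edgeR adjusted p = 0.0256) and gpx1a (1.51, edgeR adjusted p = 0.0337) completed the 4. Without CHT-EC replicate 1 the calls of hmox1a (0.0702, log2 fold change 3.49) and prdx5 (0.114) ended, and that of prdx5 ended also when replicate 2 of CHT-EC (0.0532) or of CHT-HSPC (0.0566) was left out. The call of gpx1a ended in each of the fits that left out 1 library (adjusted p between 0.0637 and 0.153) and with the replicate number as a block (0.0504). The most abundant of the members that did not pass were prdx2 (0.08), txnrd1 (0.79), gsr (0.93) and nfe2l2a (0.79). The superoxide dismutase genes sod1 (−0.30) and sod2 (−0.06), which turn superoxide into hydrogen peroxide in every cell and are named after their values were seen, did not pass either.

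A list for the supply of NADPH, the electron donor of the oxidase (the NADPH genes below), also held genes whose enzymes do not themselves make it, such as taldo1 and rpia. Of its 12 tested members 2 were higher in CHT-EC and none was lower (edgeR), with 10 not past the threshold and a median log2 fold change of 0.18. The shares over all genes tested were 3.78% and 0.752%. At an unadjusted p under 0.05 the counts were 4 and 0 (all genes 14.6% and 9.23%), and DESeq2 called 3 and 0 (10.9% and 3.91%). The pentose phosphate enzyme gene pgd (ENSDARG00000015343) was at 391 and 334 CPM in CHT-EC, but 72.1 and 100.1 CPM in the libraries of CHT-HSPC (log2 fold change 2.07, SE 0.28, edgeR adjusted p = 0.0160). The NAD kinase gene nadka (ENSDARG00000098313) was at 45.7 and 33.2 CPM against 1.65 and 5.0 CPM (log2 fold change 3.56, SE 0.59, edgeR adjusted p = 0.0264). Abundant members that did not pass were taldo1 (1.12), idh1 (0.98), the mitochondrial IDH2 (−0.44) and rpia (−0.40), with log2 fold changes in parentheses. The pentose phosphate enzyme gene taldo1 passed with DESeq2 (adjusted p = 0.00661) and limma-voom (0.0378). The calls of pgd and nadka ended without CHT-EC replicate 1. Over the 12 alternative fits the log2 fold change of nadka ran from 2.98 to 4.61, the latter without CHT-HSPC replicate 2.

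The genes whose levels followed the subunits most closely over the 4 libraries were sought among 6132 other genes that averaged 20 CPM or more and had a symbol that is no clone name. Likeness was the Euclidean distance between centred log2 CPM profiles, and the 4 subunits lay 0.623 to 0.807 from their own mean profile. The nearest genes were ADGRG3 (distance 0.148), an adhesion receptor gene, samsn1a (0.284), an adaptor gene of blood cells, prkcq (0.334), the protein kinase C theta gene, arg2 (0.362), an arginase gene, and card9 (0.423), an adaptor gene of innate immune receptors. ADGRG3 was at 119 and 61.4 CPM in CHT-EC, compared with 5.83 and 15.4 CPM in the CHT-HSPC libraries, the same order of libraries as for the subunits. It was picked by its nearness to them over these libraries, so the shared order is no separate result. The likeness rests on 4 libraries and is a description. With a minimum of 5 CPM, 3 of the 5 genes were the same.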

How the data were processed

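The authors deposited raw counts for Ensembl genes in 1 table that has 4 library columns. Per the labels' protocols, libraries were made with NEBNext Ultra and sequenced as 150 bp paired-end reads. TopHat2, HTSeq 0.6.1 and the build GRCz10 are named, per the submitters' processing notes. Annotation release, strand setting and treatment of multiply mapped reads are not given in the sources used here, so reads of overlapping or antisense genes cannot be told apart. Columns were tied to samples by name (HSC in the table, HSPC in the titles), and no other per-sample column was present.

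Counts were tested in R 4.3.3 with edgeR 4.0.16 (quasi-likelihood F-test), with TMM factors, filterByExpr (minimum count 10, minimum total 15), no block, and Benjamini-Hochberg adjustment over all genes tested (threshold 0.05). SEs were obtained as the size of the log2 fold change over the root of F. The test was first tested on counts simulated with the spread that edgeR itself had fitted. That run therefore does not assess the test for genes whose spread is wider. Alternatives were library totals, DESeq2 size factors, upper-quartile factors, other filters, DESeq2 1.42.0, limma-voom (limma 3.58.1), the replicate number as a block and leaving out each library. Log2 profiles used a prior count of 2.

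The members and lists were chosen with earlier results of these data known. Named genes are the 4 subunits, each list's called members and its 4 most abundant others, and the 5 nearest profiles; 7 further list members (prkcda, hvcn1, cybc1, rac1a, rac1b, sod1 and sod2) were chosen after their values were seen. List symbols were matched in the table, regardless of case, or through a table of Ensembl identifiers and symbols, by which cybc1, cebp1, tkt, nadk and txnrd3 are listed as C12H17orf62, si:ch211-198c1.7, tkta, nadka and txnrd1. The symbols vav1 and dock2 were not analysed here, and some further genes of the pathway are not reported here and are outside the list counts.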

Additional observations from a re-analysis of the deposited data

How the results depend on the processing

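All 4 subunits stayed on the CHT-EC side under each of the 12 alternatives. Without the low-count filter edgeR called far more readily, with 2119 genes of the whole table toward CHT-EC against 718 in the reported fit. It gave ncf1 an adjusted p of 1.7e-22 there, against 0.0573. Of all genes tested, 718 of 19016 were called higher in CHT-EC in the reported fit and 2119 of 24939 without the filter. With at least 10 CPM in 2 libraries the count was 912 of 9332. Of 19016 genes, 769 were called with upper-quartile factors, 705 with limma-voom and 813 with the replicate number as a block. DESeq2 called 2079 of the 19137 genes to which it gave an adjusted p. The number of subunits called higher in CHT-EC was 2 in the reported fit. This number was 4 with upper-quartile factors, without the low-count filter, with at least 10 CPM in 2 libraries, with DESeq2 and with limma-voom. It ran from 0 to 4 with 1 library left out, the 0 being without CHT-EC replicate 1. A fit that took replicate numbers as a block called 2 subunits, as the reported fit did, along with 3 partners, 5 peroxide genes and 2 NADPH genes, and of the genes named it ended the call of gpx1a, brought prkcda past the threshold and changed no other call. The correlation of deviations of same-numbered libraries was 0.0167 across genes, but 2 pairs cannot tell whether the numbers mark a shared origin. The filter also changed how many list members were tested. With at least 10 CPM these were 16 partners, 21 peroxide genes and 10 NADPH genes. Without the filter they were 20, 28 and 13. Partners called higher in CHT-EC numbered 6 without the filter, 4 with at least 10 CPM, 7 with DESeq2, 1 with library totals alone and 0 to 4 with 1 library left out. Peroxide genes numbered 8 without the filter and 1 to 5 with 1 library left out. NADPH genes numbered 4 without the filter, 3 with at least 10 CPM, with DESeq2 and with limma-voom, and 0 to 2 with 1 library left out.

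The whole table gave 718 calls toward CHT-EC and 143 toward CHT-HSPC. The first count was 471 with library totals alone, and both were 2119 and 812 without the filter and 2079 and 748 with DESeq2. With limma-voom 233 calls were toward CHT-HSPC. With 1 library left out the counts ran from 111 to 864 and from 10 to 139, the lowest both without CHT-EC replicate 1. The filter at 10 CPM moved the median log2 fold change of the genes it kept by 0.13.

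Signs turned for 9 of 40 genes, none of them called. With 1 library left out the log2 fold change ran from −0.27 to 0.013 for rap1b, −0.19 to 0.020 for pak2b, −0.41 to 1.56 for nox1, −0.25 to 0.37 for prdx2 −0.81 to 0.29 for pik3cg, −0.075 to 1.21 for rac1a, −0.044 to 0.69 for rac1b, −0.050 to 0.24 for cybc1 and −0.16 to 0.096 for sod2. With at least 10 CPM that of pak2b was 0.021 and that of sod2 0.074. The causes were not tested. Each subunit had at least 130 counts in every library.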
